A study of Mus musculus with 72 samples.

Results

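Cbr1 and Cbr3 encode the carbonyl reductases 1 and 3, and both genes lie side by side on the segment of mouse chromosome 16 (MMU16) that is triplicated in Ts1Cje mice. The probe sets annotated to either symbol were taken, which gave 1 for Cbr1 (1460196_at) and 1 for Cbr3 (1427912_at) out of the 45101 on the array. Their log2 expression values were followed over 72 arrays.

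Ts1Cje mice carry an additional copy of the distal part of MMU16, from Sod1 to Znf295, translocated onto chromosome 12 with loss of the end of that chromosome; the extra Sod1 copy is disrupted by a neomycin cassette, which was also used for genotyping. They were bred from Ts1Cje males and C57BL/6 females and compared with their disomic C57BL/6 littermates. Total RNA of the cerebral cortex, cerebellum and hippocampus was hybridised at 4 ages, postnatal days 15 (P15), 30 (P30) and 84 (P84) and a newborn age that the labels call P1 and the methods P1.5, with 3 mice per genotype and age and all 3 regions taken from the same mice, so that 24 groups of 3 arrays resulted. The mice were untreated, and the labels give them all as female, but on 69 of 72 arrays the Y-linked Eif2s3y exceeded Xist.

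Carbonyl reductases are NADPH-dependent enzymes of the short-chain dehydrogenase family that turn aldehydes and ketones into alcohols. Cbr1 accepts many substrates, among them prostaglandins, quinones, aldehydes formed by lipid peroxidation and the anthracycline drugs doxorubicin and daunorubicin, whereas Cbr3 is a close relative with a narrower known range. In the brain such enzymes are regarded as part of the handling of reactive carbonyls, and CBR1 and CBR3 are also neighbours on human chromosome 21.

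Between the start sites of the 2 genes the RefSeq annotation of GRCm38.p6 places the pseudogene Gm5678, with Setd4 before Cbr1 and Gm52236 and Dop1b after Cbr3. The 250 bases before each start site are shown because the 2 neighbours followed different courses with age and region, as described further on. Both sequences are from RefSeq, build GRCm38.p6, plus strand: chr16:93607587-93607836 for Cbr1 and chr16:93682969-93683218 for Cbr3. Capitals mark the matches to the motifs named after them.
Cbr1: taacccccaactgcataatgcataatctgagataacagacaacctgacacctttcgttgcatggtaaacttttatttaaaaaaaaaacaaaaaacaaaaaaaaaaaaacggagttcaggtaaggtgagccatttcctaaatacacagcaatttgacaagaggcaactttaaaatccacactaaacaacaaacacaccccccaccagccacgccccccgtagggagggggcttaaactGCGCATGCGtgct
Cbr3: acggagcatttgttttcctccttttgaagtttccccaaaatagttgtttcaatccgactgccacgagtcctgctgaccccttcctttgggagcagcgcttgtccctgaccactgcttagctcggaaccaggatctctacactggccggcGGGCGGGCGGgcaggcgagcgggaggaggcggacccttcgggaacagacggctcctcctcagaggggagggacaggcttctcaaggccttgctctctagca

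The Cbr1 stretch held 41.6% G and C with 6 CpG dinucleotides, and the Cbr3 stretch 59.6% with 14, against medians of 52.4% and 6 over 32851 promoters of the same length. The 5 motifs searched, chosen after the sequences had been seen, were looked for on both strands. The core bound by nuclear respiratory factor 1 (GCGCATGCG) stood in the Cbr1 stretch from position -13, counted back from the start site, and 1.45% of all promoters held it. The GC box (GGGCGG) stood in the Cbr3 stretch from positions -101 and -97, as a pair of overlapping matches, and 32.7% of all promoters held at least 1. Neither stretch held the antioxidant response element core TGACNNNGC (10.2% of promoters), CCAAT (33.8%) or TATAAA (12.4%). These matches describe letters in these windows and do not show that a factor binds there.

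A set of 5 arrays stood apart from the rest. On an axis that placed hippocampus at 0 and cerebellum at 1, the P15 disomic replicate 3 array labelled hippocampus lay at 1.03 and the one labelled cerebellum at -0.03, while all the other arrays labelled hippocampus lay between -0.03 and 0.12 and those labelled cerebellum between 0.80 and 1.04. The cerebellar granule cell gene Gabra6 and the forebrain gene Neurod6 read 12.04 and 3.51 on the former array and 2.02 and 10.94 on the latter. The disomic replicate 3 arrays of P1 cerebellum, P84 cortex and P84 hippocampus had lower upper quartiles than the rest, 4.97, 5.23 and 5.51 against 5.65 to 5.93 elsewhere. They are called dim for this reason only, as the median of the P1 cerebellum array, 3.37, was not low. The fits were repeated without these 5 arrays, and the values so obtained stand beside the results. In tissue RNA, fewer cells of a type and less RNA per cell cannot be told apart.

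**Figure D1:**
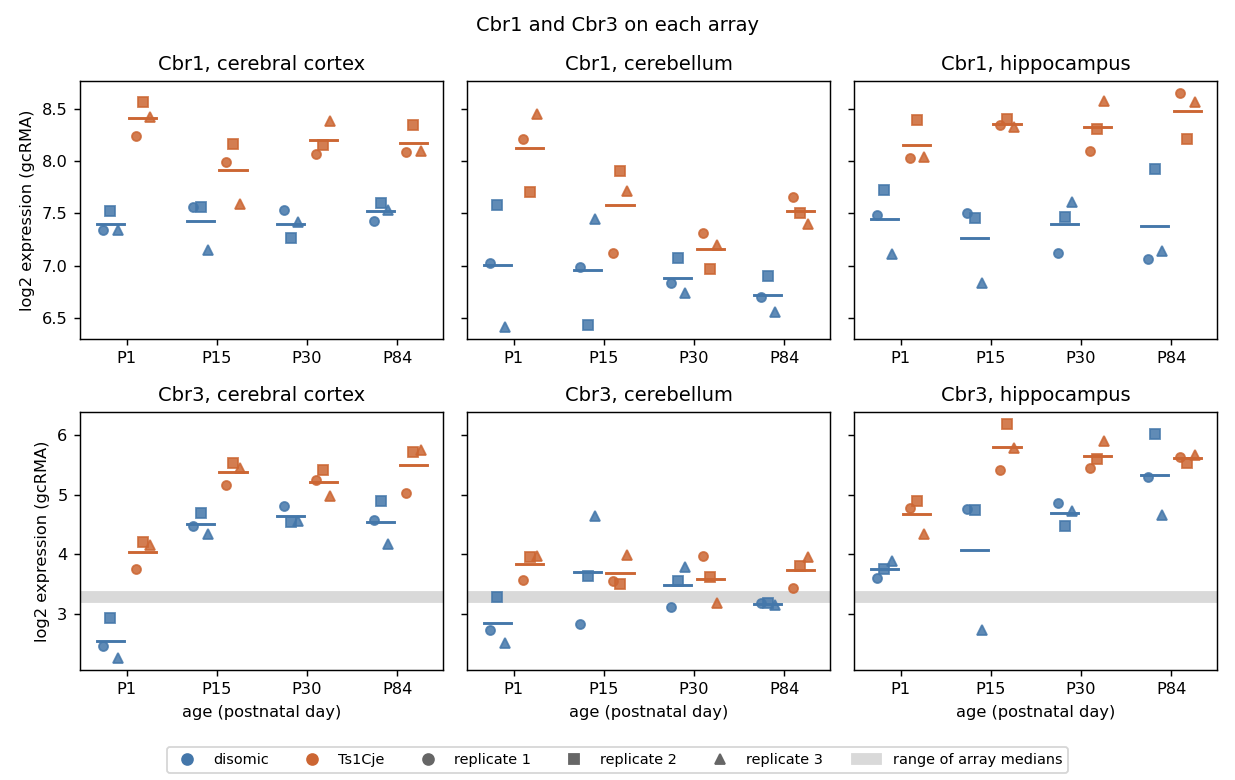
Log2 expression of Cbr1 (top) and Cbr3 (bottom) on every array by region and age. Points are single arrays, shapes mark replicate numbers, horizontal lines are means of 3, and the grey band in the Cbr3 panels spans the medians of the arrays (3.20 to 3.37). Ts1Cje arrays lie above disomic arrays in most groups, and Cbr3 stays low in the cerebellum while it is higher in the cortex and hippocampus from P15.

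Cbr1 was measured well above the medians of the arrays, which were 3.20 to 3.37, in every group. In the cortex the Ts1Cje arrays read 8.24, 8.57 and 8.43 at P1 against 7.34, 7.52 and 7.34 on the disomic arrays, and at P15 they read 7.99, 8.17 and 7.59 against 7.56, 7.56 and 7.15. At P30 they read 8.07, 8.16 and 8.39 against 7.53, 7.26 and 7.42, and at P84 8.09, 8.35 and 8.10 against 7.43, 7.60 and 7.53. All Ts1Cje arrays thus exceeded all disomic arrays of the same age, with the narrowest gap at P15, as did 3.61%, 4.29%, 4.71% and 6.68% of all probe sets at P1, P15, P30 and P84.

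In the cerebellum the Ts1Cje values of Cbr1 were 8.22, 7.71 and 8.46 at P1 against 7.02, 7.58 and 6.41, and 7.12, 7.91 and 7.72 at P15 against 6.99, 6.43 and 7.45. They were 7.31, 6.97 and 7.20 at P30 against 6.83, 7.07 and 6.74, and 7.66, 7.50 and 7.40 at P84 against 6.70, 6.90 and 6.55. The genotypes overlapped at P15 and P30. Among all probe sets, 4.93% were higher without overlap at P1, 4.02% at P15, 4.02% at P30 and 4.65% at P84. The low disomic value at P1 (6.41) and the high one at P15 (7.45) came from a dim and a displaced array.

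In the hippocampus the Ts1Cje values of Cbr1 were 8.03, 8.40 and 8.04 at P1 against 7.49, 7.73 and 7.11, and 8.35, 8.41 and 8.33 at P15 against 7.50, 7.46 and 6.83. They were 8.10, 8.31 and 8.58 at P30 against 7.12, 7.47 and 7.61, and 8.66, 8.22 and 8.57 at P84 against 7.06, 7.93 and 7.14. No age showed an overlap, which held for 2.88%, 5.92%, 4.62% and 8.53% of all probe sets at the 4 ages. The lowest disomic value, 6.83 at P15, was that of the displaced array.

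Cbr3 read lower and nearer to the array medians. In the cortex its Ts1Cje values were 3.75, 4.21 and 4.15 at P1 against 2.47, 2.93 and 2.26, and 5.16, 5.54 and 5.45 at P15 against 4.47, 4.70 and 4.34. They were 5.25, 5.42 and 4.98 at P30 against 4.81, 4.54 and 4.56, and 5.03, 5.72 and 5.75 at P84 against 4.58, 4.89 and 4.17. The genotypes did not overlap at any age, which held for 3.61%, 4.29%, 4.71% and 6.68% of all probe sets at the 4 ages. However, none of the 3 disomic arrays at P1 exceeded its own array's median, so the disomic level there was not shown to be above background.

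In the cerebellum Cbr3 stayed close to the array medians. The Ts1Cje values were 3.57, 3.96 and 3.97 at P1 against 2.73, 3.29 and 2.51, and 3.55, 3.51 and 3.99 at P15 against 2.84, 3.64 and 4.65. They were 3.97, 3.62 and 3.18 at P30 against 3.12, 3.55 and 3.79, and 3.43, 3.81 and 3.96 at P84 against 3.18, 3.18 and 3.15. The genotypes overlapped at P15 and P30, while 4.93% and 4.65% of all probe sets were higher without overlap at P1 and P84. The highest disomic value (4.65) was that of the displaced array, and 1 of 3 disomic arrays at P1 and 0 of 3 at P84 exceeded its array's median.

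In the hippocampus the Ts1Cje values of Cbr3 were 4.78, 4.89 and 4.34 at P1 against 3.60, 3.76 and 3.89, and 5.42, 6.19 and 5.79 at P15 against 4.76, 4.74 and 2.73. They were 5.45, 5.60 and 5.90 at P30 against 4.87, 4.48 and 4.73, and 5.63, 5.54 and 5.67 at P84 against 5.30, 6.02 and 4.66. The groups overlapped at P84, where 1 disomic array (6.02) exceeded every Ts1Cje array. The lack of overlap at P1, P15 and P30 was shared by 2.88%, 5.92% and 4.62% of all probe sets. The value of 2.73 at P15 came from the displaced array, which sat with the cerebellar arrays.

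The first question was whether the added gene copy was accompanied by more RNA of both reductases. Averaged over the 12 pairs of region and age, Cbr1 was 0.81 higher in Ts1Cje on the log2 scale (SE 0.067, 95% interval 0.67 to 0.94, a 1.75-fold level; limma adjusted p = 2.72e-13) and Cbr3 was 0.78 higher (SE 0.097, interval 0.59 to 0.98, 1.72-fold; adjusted p = 6.83e-08). Both met the DEG criteria, which were a moderated t of 4 or more in size and a p of 0.05 or less after Benjamini-Hochberg adjustment over the whole array, and 0.517% of probe sets met these in the upward direction. Without the 5 arrays named above the differences were 0.77 for Cbr1 (interval 0.65 to 0.90; adjusted p = 1.7e-13) and 0.71 for Cbr3 (0.57 to 0.85; adjusted p = 9.31e-11). The ratio of 3 copies to 2 corresponds to 0.58, which lay below both intervals of Cbr1 and, for Cbr3, just below the interval over all arrays and inside the one without the 5. In the paper's RT-qPCR of the same RNA, most differences of Cbr1 in the cerebellum and hippocampus were at or below this ratio. The paper still counted Cbr1 in the hippocampus as borne out by RT-qPCR. Its own array differences for this probe set were smaller than those found here in every region and age except the P30 cerebellum. Whether the scale of the array values has a part in the excess was not tested.

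Cbr1 was higher in Ts1Cje with no overlap in 10 of 12 comparisons, an outcome reached or exceeded by 0.082% of all probe sets, and Cbr3 in 9 of 12, reached or exceeded by 0.118%. Without the 5 arrays these counts were 11 of 12 (0.071%) and 9 of 12 (0.126%), since Cbr1 in the P15 cerebellum overlapped only through the displaced array. At single ages, non-overlap in this direction was met by 2.88% to 8.53% of all probe sets, so that a single such result says little.

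By region, the average of the 4 ages for Cbr1 was higher in Ts1Cje by 0.74 in the cortex (95% interval 0.51 to 0.98; adjusted p = 6.06e-05), 0.71 in the cerebellum (0.48 to 0.94; adjusted p = 0.000135) and 0.96 in the hippocampus (0.73 to 1.20; adjusted p = 1.58e-07), with an SE of 0.115 each. Cbr3 was higher by 0.98 in the cortex (0.64 to 1.31; adjusted p = 0.000431) and 0.97 in the hippocampus (0.64 to 1.31; adjusted p = 0.000492), with an SE of 0.167. In the cerebellum its difference was 0.41 (0.07 to 0.74; adjusted p = 0.757) and did not meet the criteria. Among all probe sets, 0.191% met the criteria upward in the cortex, 0.217% in the cerebellar average and 0.184% in the hippocampal one.

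Two-sided exact permutation tests, with the genotype permuted within each age over 160000 arrangements, gave p = 1.25e-05, the smallest they can give, for Cbr1 in the cortex and hippocampus and for Cbr3 in the cortex. The exact permutation p was 0.000162 for Cbr1 in the cerebellum, 0.0001 for Cbr3 in the hippocampus and 0.0405 for Cbr3 in the cerebellum. In the cerebellum and hippocampus these tests kept the displaced arrays under their labels. Without all Ts1Cje replicate 2 arrays the Cbr3 averages were 0.88 in the cortex (adjusted p = 0.0862) and 0.91 in the hippocampus (adjusted p = 0.0619). Without the 2 displaced arrays the cerebellar average of Cbr3 was 0.52 (adjusted p = 0.0537). Without all 5, the averages in the cortex, cerebellum and hippocampus were 0.74, 0.70 and 0.88 for Cbr1, which met the criteria, and for Cbr3 0.93 and 0.72 in the cortex and hippocampus, which did so, and 0.48 in the cerebellum (adjusted p = 0.0661), which did not.

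**Figure D2:**
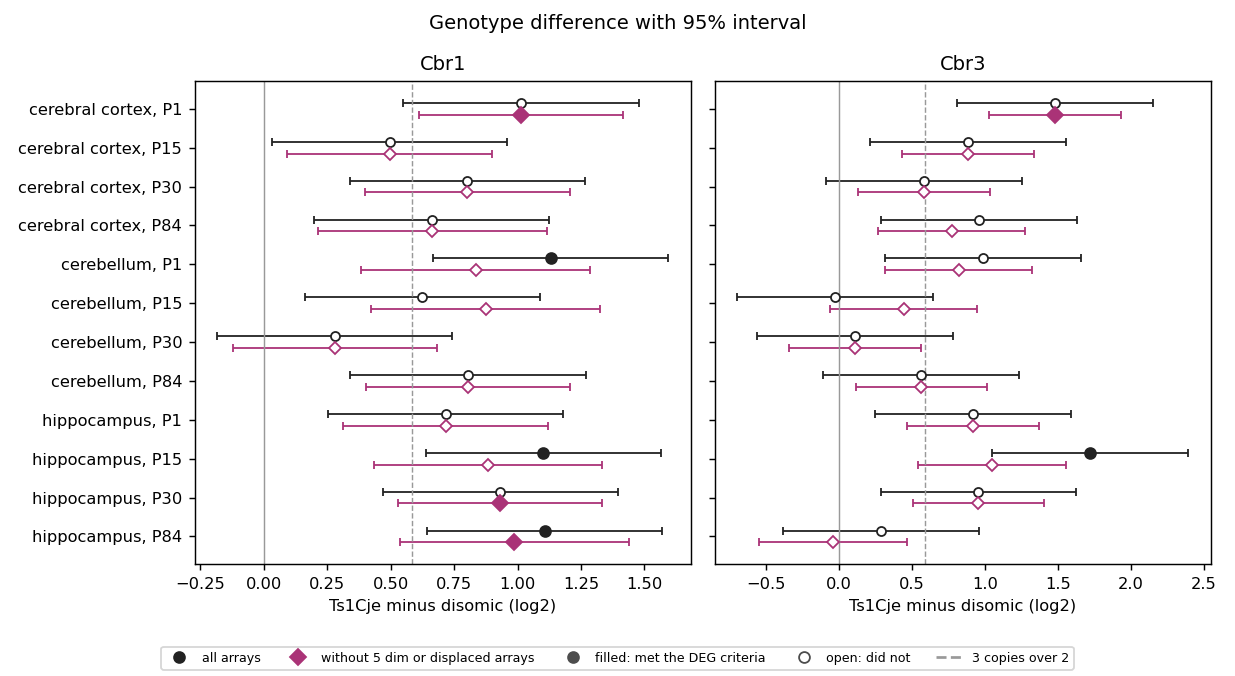
Difference between Ts1Cje and disomic mice (log2) for Cbr1 and Cbr3 in each region and age, with 95% intervals from the fit over all arrays (black) and without the 5 dim or displaced arrays (purple). Filled symbols met the DEG criteria and the dashed line marks 0.58, the ratio of 3 copies to 2. With all arrays, 3 differences of Cbr1 and 1 of Cbr3 met the criteria, and of these only that of Cbr1 in the P84 hippocampus did so without the 5 arrays.

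At single ages, with 3 arrays against 3, few differences met the criteria. Cbr1 was higher in Ts1Cje by 1.13 in the P1 cerebellum (adjusted p = 0.00803), by 1.10 in the P15 hippocampus (adjusted p = 0.035) and by 1.11 in the P84 hippocampus (adjusted p = 0.022), each with an SE of 0.231. From P1 to P84, the criteria were met upward by 0.00665%, 0.00222%, 0.0111% and 0.0443% of all probe sets in the cortex, by 0.406%, 0.031%, 0.0266% and 0.0976% in the cerebellum and by 0.0133%, 0.051%, 0.0155% and 0.0665% in the hippocampus. The other 9 differences of Cbr1 ran from 0.28 in the P30 cerebellum to 1.01 in the P1 cortex and did not meet the criteria. The paper, from its own fit, marked Cbr1 in the P84 cerebellum and the P15 and P84 hippocampus, but not in the P1 cerebellum.

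Cbr3 was higher by 1.72 (SE 0.335; adjusted p = 0.0146) in the P15 hippocampus, its single difference that met the criteria. The other 11 ran from -0.03 in the P15 cerebellum to 1.48 in the P1 cortex, where the adjusted p was 0.14. An exact permutation test of 3 arrays against 3 cannot give a p below 0.1, so none was used for single ages.

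These single-age results moved with the 5 arrays. Without the displaced arrays the P15 hippocampus differences were 1.05 for Cbr3 (adjusted p = 0.566) and 0.88 for Cbr1 (adjusted p = 0.595), and that of Cbr3 in the P15 cerebellum was 0.44 instead of -0.03. Without the dim arrays the P1 cerebellum difference of Cbr1 was 0.84 (adjusted p = 0.355), its P84 hippocampus difference 0.99 (adjusted p = 0.114) and the P84 hippocampus difference of Cbr3 -0.04. Without all 5 arrays, the differences that met the criteria were those of the P1 cortex, 1.01 for Cbr1 (adjusted p = 0.0212) and 1.48 for Cbr3 (adjusted p = 0.000538), and those of Cbr1 in the P30 hippocampus (0.93; adjusted p = 0.049) and the P84 hippocampus (0.99; adjusted p = 0.0458).

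Marker lists of 12 cell types and regions were read beside the genotype differences, and no member met the criteria in any of them. Their overall medians ran from -0.04 for astrocytes to 0.10 for the cerebral cortex. At single ages some lists shifted beside the differences of Cbr1 and Cbr3. At P15 the cerebellar markers had median differences of 2.77 (cerebellum) and -2.35 (hippocampus) and the forebrain markers -1.18 and 1.05, the comparisons that hold the displaced arrays. The cerebellar markers also stood at -1.13 in the P84 hippocampus, where Cbr1 met the criteria, and at 1.31 in the P30 hippocampus. The markers of the meninges stood at -0.67 in the P1 cerebellum, where all 6 lay between -1.05 and -0.56 and Cbr1 met the criteria, and at -1.10 in the P1 cortex. The summed level of the endothelial markers in the P1 cerebellum was 6.51 to 7.28 in Ts1Cje and 7.38 to 8.2 in disomic mice. In the P15 hippocampus, where both genes met the criteria, the choroid plexus sums had means of 11.62 in Ts1Cje and 9.58 in disomic mice. The disomic arrays there ran from 6.39 to 13.73. The part of these tissues in the Cbr1 and Cbr3 values was not tested.

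**Figure D3:**
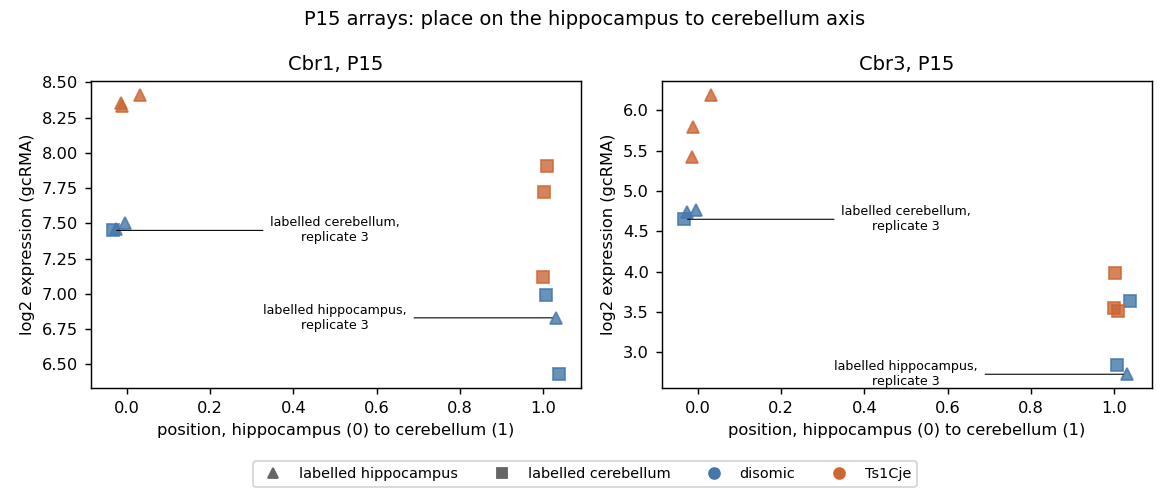
Log2 expression of Cbr1 and Cbr3 on the 12 P15 arrays labelled hippocampus or cerebellum, against their place on an axis from hippocampus (0) to cerebellum (1). The disomic replicate 3 array labelled hippocampus lies at 1.03 with a Cbr3 value of 2.73, and the one labelled cerebellum at -0.03 with 4.65.

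Whether the genotype difference varied with age or region was tested in the same fit. No moderated F test over the 4 ages passed the threshold for either gene. The largest F of limma was 3.07 for Cbr3 in the hippocampus (adjusted p = 0.91). It was met by 0.0% of all probe sets in the cortex, by 0.0399% in the cerebellum and by 0.00222% for the hippocampus, while 875, 3685 and 2422 of 45101 probe sets in the cortex, cerebellum and hippocampus had an unadjusted p under 0.05.

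The genotype difference of Cbr3 in the cerebellum minus that in the cortex was -0.57 (interval -1.04 to -0.09) and that in the hippocampus minus that in the cerebellum was 0.56 (0.09 to 1.04), each with an adjusted p of 1.0. For Cbr1 the hippocampal difference exceeded that of the cerebellum by 0.25 (-0.07 to 0.58) and that of the cortex by 0.22 (-0.11 to 0.55). None of these contrasts was met by any probe set, a share of 0.0%, although 1330 to 1597 probe sets had an unadjusted limma p under 0.05. Without the 5 arrays the 2 contrasts of Cbr3 were -0.45 (-0.78 to -0.11) and 0.24 (-0.10 to 0.58), also short of the criteria. The larger and smaller regional values were therefore not shown to differ.

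The genotype difference of Cbr3 exceeded that of Cbr1 by 0.23 in the cortex, was below it in the cerebellum, at -0.30, and stood at 0.01 in the hippocampus. Two-sided exact permutation tests gave p = 0.0685, 0.097 and 0.973, or 0.146, 0.146 and 0.973 after adjustment over these 3 tests, and without the 5 arrays the differences were 0.18, -0.22 and -0.16, each with an exact p of 0.349 after adjustment. A smaller or larger response of either gene was not shown at this number of mice.

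Apart from genotype, the 2 genes differed in how their level moved with age. Cbr3 rose from P1 to P15 by 1.65 in the cortex (interval 1.17 to 2.12; adjusted p = 6.02e-08) and from P1 to P84 by 1.73 there (1.25 to 2.20; adjusted p = 1.52e-08), both genotypes weighted equally, and by 1.26 from P1 to P84 in the hippocampus (0.79 to 1.74; adjusted p = 1.42e-05). In the cerebellum the change from P1 to P84 was 0.11 (-0.36 to 0.59; adjusted p = 0.748). No step after P15 met the criteria for either gene in any region, and no age difference of Cbr1 did; the largest was -0.45 from P1 to P84 in the cerebellum (t = -2.76; adjusted p = 0.0208). Without the 5 arrays that change was -0.60 and just missed the threshold on t (t = -3.98; adjusted p = 0.000804).

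Large changes with age were common on the arrays, since 10.8% of all probe sets rose by the criteria from P1 to P15 in the cortex, and 11.3%, 13.6% and 10.4% rose from P1 to P84 in the cortex, cerebellum and hippocampus. In the hippocampus the step of Cbr3 from P1 to P15 was 0.73 (t = 3.08; adjusted p = 0.0128) and missed the threshold on t. Without the 2 displaced arrays it was 1.07 (adjusted p = 5.03e-06) and met it, and with all arrays 8.68% of probe sets did so upward. The disomic P1 cortex, against which the largest rise was measured, held Cbr3 below the array medians, so its size was read from values near the floor.

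The change of Cbr3 from P1 to P84 was smaller in the cerebellum than in the cortex by a difference of -1.62 (interval -2.29 to -0.94; adjusted p = 0.000143), a contrast chosen after the values had been seen, whose downward direction 6.22% of probe sets met, and by -1.79 without the 5 arrays. For Cbr1 the same contrast was -0.40 (-0.86 to 0.07; adjusted p = 0.208). Between hippocampus and cerebellum it was 1.15 for Cbr3 (t = 3.43; adjusted p = 0.00814), short of the threshold on t that 5.15% of probe sets met upward, and 1.40 without the 3 dim arrays (adjusted p = 0.00166), where it met it.

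The order of the regions was read at each age. At P1 the cerebellum minus the cortex was 0.04 for Cbr3 (interval -0.43 to 0.52), and the hippocampus was higher than the cortex by 0.91 (t = 3.86; adjusted p = 0.0133) and than the cerebellum by 0.87 (t = 3.68; adjusted p = 0.00488), both short of a t of 4 and both past it without the displaced arrays. At P15, P30 and P84 the cerebellum was lower than the cortex in Cbr3, by differences of -1.24, -1.39 and -1.57, and the hippocampus was higher than the cerebellum by 1.24, 1.63 and 2.02, all of which met the criteria. The P15 values held the displaced arrays: without these they were -1.48 and 1.81 and met the criteria, over the disomic arrays alone they were -0.79 and 0.37 and did not, and both missed them without Ts1Cje replicate 2 (-1.16 and 1.10) or disomic replicate 1 (-1.03 and 0.85). Hippocampus and cortex were neighbours in this order, and their differences from P15 on (-0.00, 0.24 and 0.44) missed the criteria. The P84 interval over all arrays was -0.03 to 0.92. Without the dim and displaced arrays the differences were 0.33, 0.24 and 0.52, with a P84 interval of 0.16 to 0.87. Over the disomic arrays alone they were -0.42, 0.06 and 0.78, with a P84 interval of 0.11 to 1.45. These also missed the criteria, although both P84 intervals lay above zero.

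For Cbr1 the regions were closer together. The cerebellum was lower than the cortex by differences of -0.79 at P30 (adjusted p = 0.000103) and -0.73 at P84 (adjusted p = 0.000285), and the hippocampus was higher than the cerebellum by 0.85 at P30 (adjusted p = 3.41e-05) and 0.81 at P84 (adjusted p = 6.66e-05). At P1 and P15 no regional difference of Cbr1 met the criteria, although that between hippocampus and cerebellum at P15 was 0.54 and reached 0.78 without the displaced arrays (adjusted p = 0.000267), where it met them. Hippocampus and cortex lay within 0.14 of each other at every age. Regional differences of this kind were met by 7.05% (P1), 6.96% (P15), 8.43% (P30) and 7.89% (P84) of all probe sets as lower in the cerebellum than in the cortex, and by 5.02%, 3.8%, 8.57% and 7.82% as higher in the hippocampus than in the cerebellum.

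Markers of microglia moved with the change of Cbr3 with age, as did those of neurons in their medians but not in their summed level. All 6 of the list (Cx3cr1, Csf1r, Aif1, C1qa, P2ry12 and Tmem119) rose from P1 to P84 in the cortex and in the hippocampus and none met the criteria in the cerebellum, with median differences of 2.51, 2.22 and 0.36. The 6 neuronal markers had medians of 1.75, 1.83 and 0.28 in the same order, with 4, 4 and 3 higher and 2 lower in each region. At P1 the microglial markers of hippocampus and cortex differed by a median of 0.25 and none met the criteria, beside the 0.91 of Cbr3. The summed level of the microglial markers ran from 5.83 to 7.18 on the P1 cortex arrays and from 9.33 to 9.53 at P84, against 6.55 to 7.43 and 7.10 to 7.86 in the cerebellum. That of the neuronal markers ran from 13.73 to 14.11 on the P1 cortex arrays and from 14.3 to 14.67 at P84. In the cerebellum the neuronal sum rose as well, with 13.33 to 13.59 at P1 and 14.49 to 14.65 at P84. The summed level of the cerebral cortex markers (Rorb, Cux2 and Lamp5) followed a similar course. Its means in Ts1Cje and disomic mice were 8.72 and 9.18 in the P1 cortex and 11.25 and 11.06 at P84. In the hippocampus they were 7.03 and 7.25 at P1 and 8.34 and 8.71 at P84. In the cerebellum they were 7.29 and 6.47 at P1 and 6.89 and 6.53 at P84. The part of microglia, neurons or cells with the cortex markers in the Cbr3 levels was not tested. Between genotypes no microglial marker met the criteria in any region average, where their medians were -0.05, -0.12 and 0.21 in the cortex, cerebellum and hippocampus.

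Over the 12 disomic group means, the genes whose pattern was most like that of Cbr1, among 5968 genes with a mean of at least 5 and an SD of at least 0.5, were Chd5 (Pearson r = 0.976), Rspo2 (0.971), Jakmip1 (0.971), Syt5 (0.97) and Lrfn5 (0.969). For Cbr3 they were Il18 (0.965), C1qb (0.958), Camk2a (0.954), Syne1 (0.948) and Galnt18 (0.947). Cbr1 and Cbr3 correlated with each other at 0.541 over the disomic and 0.687 over the Ts1Cje means. Group means share mice and regions, so these values are descriptions, and over the 12 Ts1Cje means the 10 named correlations lay between 0.856 and 0.962, and over the disomic means without the 5 arrays between 0.928 and 0.973.

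The 10 other genes chosen from the triplicated segment, from Rcan1 to Hlcs along the chromosome, set the 2 reductases among their neighbours. In the average over all 12 pairs, 5 of the 10 were higher in Ts1Cje by the criteria and none lower, with a median difference of 0.28, against 129 higher and 8 lower of 18194 genes and a median of 0.01. Those 5 were Morc3, a nuclear zinc finger ATPase (0.86; adjusted p = 3.29e-10), Rcan1, an inhibitor of calcineurin (0.82; adjusted p = 3.2e-12), Dop1b (0.68; adjusted p = 5.77e-14), Setd4, a SET domain methyltransferase (0.63; adjusted p = 4.33e-05) and Hlcs, which attaches biotin to carboxylases (0.32; adjusted p = 7.51e-05). Over all 10 neighbours the differences ran from -0.12 to 0.86. Cbr1 and Cbr3, at 0.81 and 0.78, stood below Morc3 and Rcan1 and above the rest.

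The others did not meet the criteria and gave 0.25 for Clic6, 0.19 for Chaf1b, 0.09 for Cldn14, -0.01 for Runx1 and -0.12 for Sim2. By region, Rcan1, Morc3 and Dop1b met the criteria in all 3, and Hlcs in the cerebellum with 0.40 (adjusted p = 0.0312), or 0.36 without the displaced arrays (adjusted p = 0.0987). Probe sets of a gene could disagree: of 3 for Morc3, the dimmest gave 0.19 overall (adjusted p = 0.24). The other probe set of Rcan1 missed the criteria in the cortex, cerebellum and hippocampus (0.54, 0.73 and 0.65; adjusted p = 0.952, 0.406 and 0.65). That of Dop1b met them in the cerebellum (0.48) but missed them in the cortex (0.35) and hippocampus (0.06; adjusted p = 0.421 and 0.975).

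At single ages the neighbours that met the criteria in the fit used here did so at P1. The paper, from its own fit, also marked Morc3, Rcan1 and Dop1b (there Dopey2) at later ages. In the P1 cerebellum Morc3 was higher in Ts1Cje by 1.49 (adjusted p = 0.00845), Rcan1 by 1.29 (adjusted p = 0.00609), Chaf1b, a subunit of chromatin assembly factor 1, by 0.95 (adjusted p = 0.0185) and Dop1b by 0.87 (adjusted p = 0.0126). These values rested on the dim disomic replicate 3 array there: without the 3 dim arrays Morc3 stood at 0.85 and still met the criteria (adjusted p = 0.0435), while Rcan1, Chaf1b and Dop1b had adjusted p of 0.229, 0.512 and 0.423. The probe set of Chaf1b had a mean of 2.72 over all arrays, below their medians, and its other probe set differed by 0.11 (adjusted p = 0.73). Dop1b was also higher by 0.97 in the P1 hippocampus (adjusted p = 0.0263), and its adjusted p was 0.0834, 0.44, 0.0546 and 0.463 without Ts1Cje replicates 2 and 3 and disomic replicates 2 and 3. The other probe sets of Rcan1 and Dop1b missed the criteria in the P1 cerebellum (0.73 and 0.15), as did that of Dop1b in the P1 hippocampus (0.32).

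**Figure D4:**
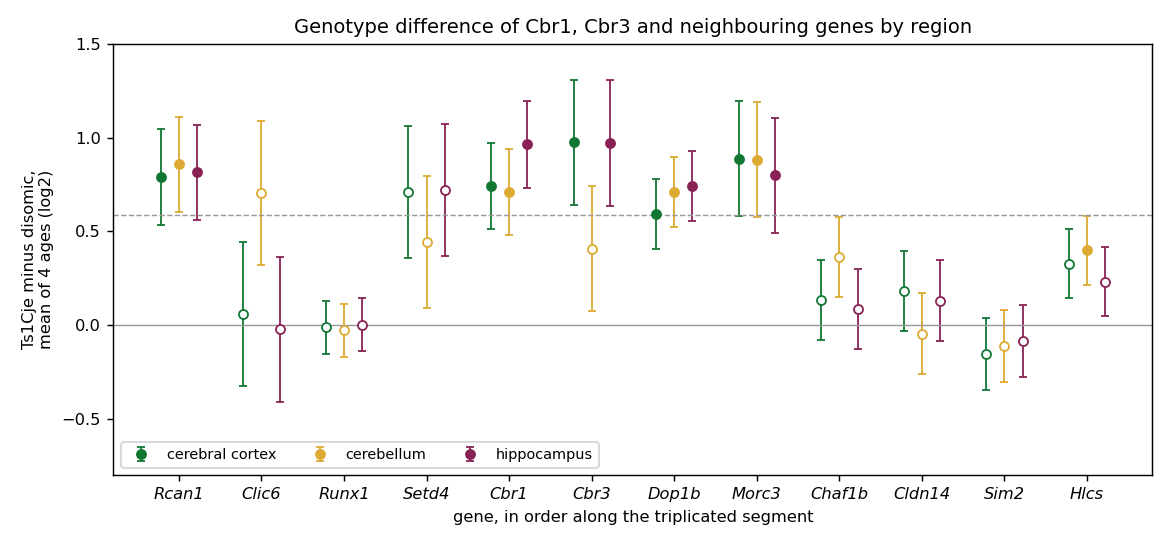
Difference between Ts1Cje and disomic mice (log2, mean of 4 ages, 95% interval) in 3 regions for Cbr1, Cbr3 and 10 neighbouring genes in their order along the chromosome. Filled symbols met the DEG criteria and the dashed line marks 0.58; Cbr1 was filled in all 3 regions, and Cbr3 in the cortex and hippocampus with 0.98 and 0.97.

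Genes of related pathways outside the segment were read against the shares of all 18194 genes that met the criteria in either direction, which were 0.753% in the overall average, 0.253% to 0.275% in the region averages and 0.0055% to 0.605% at single ages. At these shares a count of 0 says nothing particular about a list of this size. Of 21 other carbonyl-reducing enzymes with a value (of 23 listed), none met the criteria in the overall average, and the median difference was 0.02. Akr1a1, the aldehyde reductase with the highest mean of the list, differed by 0.03 (SE 0.042), and Dhrs4, a peroxisomal carbonyl reductase, by 0.20 (adjusted p = 0.319). Akr7a5, an aflatoxin aldehyde reductase, was higher in Ts1Cje by 0.44 in the cortex average (adjusted p = 0.0133) and by 0.20 overall (adjusted p = 0.0708), but its other probe sets gave 0.24 and -0.13 in the cortex (adjusted p = 0.815 and 0.998), and leaving out Ts1Cje replicate 2 or 3 or disomic replicate 1 or 3 brought it to 0.38 with adjusted p of 0.191 to 0.625.

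Of the 18 aldehyde dehydrogenases, which oxidise the aldehydes that reductases reduce, none met the criteria in an average, with a median of 0.02 overall. Aldh2, the mitochondrial acetaldehyde dehydrogenase, differed by 0.05, Aldh1a1 by 0.25 (adjusted p = 0.269) and Aldh7a1 by 0.16 (adjusted p = 0.39). Aldh6a1, of valine and pyrimidine catabolism, was higher by 0.96 in the P1 cerebellum (adjusted p = 0.0278) but by 0.46 without the dim arrays (adjusted p = 0.786).

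Of the 21 targets of the oxidative stress factor Nrf2 with a value (of 25), and of the 23 genes of prostaglandin synthesis, transport and reception (of 25), none met the criteria in any region average or at any age, and the overall medians were 0.03 and 0.02. Among the former, Fth1, the ferritin heavy chain, differed by 0.05, the epoxide hydrolase gene Ephx1 by 0.24 (adjusted p = 0.163) and Gclm, of glutathione synthesis, by 0.19 (adjusted p = 0.386). Among the latter, the prostaglandin D synthase gene Ptgds differed by -0.16 (SE 0.251), Prxl2b, a prostamide and prostaglandin F synthase, by 0.26 (adjusted p = 0.0702) and Pla2g4a, which releases arachidonic acid, by 0.22 (adjusted p = 0.0759).

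With age, the 21 other carbonyl-reducing enzymes moved both ways. From P1 to P84 in the cortex, 3 of 21 rose and 2 fell by the criteria with a median of 0.16, in the cerebellum 2 rose and 3 fell (-0.07) and in the hippocampus 3 rose and 3 fell (median 0.00). Of all 18194 genes, 2835 rose and 3350 fell in the cortex, against 2790 and 3324 for the cerebellum and 2499 and 3123 for the hippocampus, so the counts of the list lay near or below these shares.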

How the data were processed

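Total RNA of 3 brain regions of Ts1Cje and disomic mice was hybridised to 72 Affymetrix Mouse Genome arrays, each with 1 region of 1 mouse, and groups were taken from the labels. The authors deposited log2 values made with gcRMA, a method that models probe background from sequence composition, brings the arrays to a shared distribution and condenses the probes of a set into 1 value; the submitters' processing notes name GCRMA, with no version given in the sources used here. The table was used as deposited, with no filter. Scanner files were not used here, so background correction could not be repeated, and values near the floor may understate differences. Precision is limited by the number of arrays, 3 per group.

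The platform annotation named 1 gene for 34958 of 45101 probe sets, several for 932 and none for 9211; 34754 symbols were matched by gene identifier to the table of assembly GRCm38.p6. Probe sets with several symbols were not used to name genes. Whether probes of Cbr1 or Cbr3 also bind RNA of the other gene was not tested. For lists, 1 probe set per gene was used (the highest mean over all arrays; 18194 genes).

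A model with 24 group means was fitted to all probe sets by lmFit and eBayes of limma 3.58.1 (R 4.3.3), which left 48 residual degrees of freedom and 51.27 after moderation. The criteria, with the thresholds of the methods, were an absolute moderated t of 4 or more and a p of 0.05 or less after Benjamini-Hochberg adjustment. Exact permutation tests were two-sided, with genotype permuted within age. The fit was tested on simulated data. The replicate numbers were checked for pairing: same-numbered samples deviated together, with all 3 correlations over 0.1, in 3 of 12 comparisons, all in the cortex, and no pairing is stated in the labels.

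Cbr1 and Cbr3, the lists and the tests were chosen with earlier results of these data known. Other genes were named by a rule: all neighbours, list members that met the criteria in a comparison of the genotypes, and in each pathway list the member with the highest mean and the 2 with the largest absolute t over the 12 comparisons; markers of 12 cell types and regions were used as checks, and none met the criteria in a genotype average. Alternatives were replicate number as a block, the mouse as a random effect, quantile normalization, a filter at a mean of 5, a trended and robust prior, 1 fit per region or per comparison, disomic arrays only, each replicate left out, and the fits without the 2 displaced, the 3 dim or all 5 of these arrays. The block over all ages and the regional contrasts of age differences were added after seeing the data.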

Additional observations from a re-analysis of the deposited data

Results flagged for a closer look

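The change of Cbr3 from P1 to P84 differed between regions by the moderated test of the difference itself: cerebellum minus cortex was -1.62 (SE 0.335, adjusted p = 0.000143), with a rise of 1.73 in the cortex and a change of 0.11 in the cerebellum. The contrast was chosen after the data had been seen. It stood between -1.72 and -1.52 with single replicates left out, and without Ts1Cje replicate 2 or 3 the t missed the threshold (-1.59 and -1.60; adjusted p = 0.00347 and 0.00278).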

How the results depend on the processing

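Under the alternatives, 1421 recomputed values kept their direction and their side of the criteria, 52 no longer met them, 30 newly met them and 69 changed sign. The overall differences of Cbr1 and Cbr3 and the region averages of Cbr1 in the cortex and hippocampus kept their direction and met the criteria under every alternative that gave a value. The replicate block and the mouse as a random effect changed no genotype result of Cbr1 or Cbr3: with the replicate block within age the overall differences stayed at 0.81 and 0.78 (adjusted p = 3.48e-12 and 1.99e-07). For the random effect, arrays of the same genotype, age and replicate number were assumed to come from the same mouse, which the labels do not state. The deviations of same-numbered samples correlated at -0.334 to 0.818 (mean 0.206), and 31 of 36 correlations were above 0. In 3 of 12 comparisons, the P1, P30 and P84 cortex, all 3 pairs exceeded 0.1. The labels do not tell whether pairing of mice or joint processing of same-numbered samples lay behind this. With the block the P1 cortex differences still missed the criteria (1.01 and 1.48; adjusted p = 0.109 and 0.0972). The filter at a mean of 5 removed Cbr3, so it has no value there, and the overall average has none with 1 fit per region. Where a result changed, the cause was not tested beyond the arrays or replicates named. Cbr3 was dim, with means under the array medians in the disomic P1 cortex, P1 cerebellum and P84 cerebellum. Whether this affected the size of its differences was not tested.

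With 1 fit per region the criteria were missed by the cerebellar average of Cbr1 (0.71; adjusted p = 0.0554), the hippocampal average of Cbr3 (0.97; adjusted p = 0.0593) and the single-age results in the P1 cerebellum (1.13), P15 hippocampus (1.10 and 1.72) and P84 hippocampus (1.11), and met by both genes in the P1 cortex (1.01 and 1.48; adjusted p = 0.0166). With 1 fit per comparison all 4 single-age results missed them (Cbr1 1.13, 1.10 and 1.11, Cbr3 1.72; adjusted p = 0.565 to 0.932). Quantile normalization brought Cbr3 in hippocampus minus cerebellum at P1 past the threshold (0.93) and turned the sign of the Cbr1 change from P1 to P84 in the cortex (0.05), of Cbr3 in cerebellum minus cortex at P1 (-0.03) and of the Cbr3 minus Cbr1 difference in the hippocampus (-0.02).

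Without the 2 displaced arrays the P15 hippocampus differences missed the criteria (Cbr1 0.88, Cbr3 1.05) and the following met them: Cbr3 in the P1 cortex (1.48), its P15 minus P1 change in the hippocampus (1.07), hippocampus minus cerebellum of Cbr1 at P15 (0.78), hippocampus minus cerebellum and minus cortex of Cbr3 at P1 (0.87 and 0.91), and for Cbr3 the cerebellum minus cortex contrast of P15 minus P1 (-1.52) and the hippocampus minus cerebellum contrast of P84 minus P1 (1.15). Small values that changed sign were the P30 minus P15 steps of Cbr1 in the hippocampus (-0.06) and of Cbr3 in the cerebellum (0.08) and hippocampus (-0.10), hippocampus minus cortex of Cbr3 at P15 (0.33), the Cbr3 genotype difference in the P15 cerebellum (0.44), the Cbr1 genotype difference of cerebellum minus cortex (0.03) and the Cbr3 minus Cbr1 difference in the hippocampus (-0.11).

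Once the 3 dim arrays were left out, Cbr1 differences in the P1 cerebellum (0.84) and P84 hippocampus (0.99) missed the criteria, the Cbr3 contrasts of P15 minus P1 in cerebellum minus cortex (-1.37) and of P84 minus P1 in hippocampus minus cerebellum (1.40) met them, and the Cbr3 difference in the P84 hippocampus (-0.04) and the Cbr3 minus Cbr1 difference in the hippocampus (-0.05) changed sign. Without all 5, the changes named for the 2 or the 3 arrays recurred for Cbr1 at P1 cerebellum (0.84) and P15 hippocampus (0.88), for Cbr3 at P15 hippocampus (1.05), P15 cerebellum (0.44) and P84 hippocampus (-0.04), for the P15 minus P1 change (1.07), the P30 minus P15 steps (-0.06, 0.08 and -0.10), the regional differences (0.78, 0.79, 0.91 and 0.33), the regional contrasts (-1.61 and 1.40) and the Cbr3 minus Cbr1 difference (-0.16), and the criteria were also met by Cbr1 in the P1 cortex (1.01) and P30 hippocampus (0.93), Cbr3 in the P1 cortex (1.48) and its hippocampus minus cerebellum contrast of P15 minus P1 (1.03).

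Over the disomic arrays only, these regional differences missed the criteria: Cbr1 in cerebellum minus cortex at P30 and P84 (-0.53 and -0.80) and hippocampus minus cerebellum at P30 and P84 (0.52 and 0.66), Cbr3 in cerebellum minus cortex at P15 and P30 (-0.79 and -1.15) and hippocampus minus cerebellum at P15 and P30 (0.37 and 1.21). Uncalled values of Cbr1 changed sign for the steps P84 minus P30 in the cerebellum (-0.16), P15 minus P1, P30 minus P15 and P84 minus P1 in the cortex (0.03, -0.02 and 0.12), P15 minus P1, P84 minus P1 and P84 minus P30 in the hippocampus (-0.18, -0.07 and -0.02) and hippocampus minus cortex at the 4 ages (0.05, -0.16, -0.01 and -0.14), and of Cbr3 for P30 minus P15 and P84 minus P30 in the cortex (0.14 and -0.09).

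With the arrays of 1 replicate number and genotype left out in turn, given as the range and the replicates concerned, Cbr1 missed the criteria for genotype difference in the P1 cerebellum (0.84 to 1.42, missed without Ts1Cje 3 or disomic 3), genotype difference in the P15 hippocampus (0.88 to 1.22, missed without Ts1Cje 1, 2 or 3 or disomic 3), genotype difference in the P84 hippocampus (0.95 to 1.38, missed without Ts1Cje 1 or 3 or disomic 1 or 3), cerebellum minus cortex at P30 (-0.87 to -0.74, missed without Ts1Cje 3 or disomic 1), cerebellum minus cortex at P84 (-0.79 to -0.69, missed without Ts1Cje 2 or 3 or disomic 1) and hippocampus minus cerebellum at P84 (0.72 to 0.89, missed without Ts1Cje 3). Cbr3 missed them for cerebellum minus cortex of the P84 minus P1 changes (-1.72 to -1.52, missed without Ts1Cje 2 or 3), genotype difference in the P15 hippocampus (1.05 to 2.06, missed without Ts1Cje 2 or 3 or disomic 3), genotype average in the cortex (0.86 to 1.09, missed without Ts1Cje 2), genotype average in the hippocampus (0.74 to 1.12, missed without Ts1Cje 2), cerebellum minus cortex at P15 (-1.52 to -1.03, missed without Ts1Cje 2 or disomic 1) and hippocampus minus cerebellum at P15 (0.85 to 1.81, missed without Ts1Cje 2 or disomic 1). They were newly met by Cbr1 for hippocampus minus cerebellum at P15 (0.36 to 0.78, met without disomic 3), and by Cbr3 for P15 minus P1 in the hippocampus (0.52 to 1.10, met without disomic 3), cerebellum minus cortex of the P15 minus P1 changes (-1.57 to -1.09, met without disomic 3), hippocampus minus cerebellum of the P15 minus P1 changes (-0.03 to 1.06, met without disomic 3), hippocampus minus cerebellum of the P84 minus P1 changes (0.87 to 1.43, met without disomic 3), genotype difference in the P1 cortex (1.34 to 1.67, met without Ts1Cje 1), hippocampus minus cerebellum at P1 (0.75 to 0.99, met without disomic 3) and hippocampus minus cortex at P1 (0.81 to 1.02, met without disomic 3). Values short of the criteria that changed sign were, for Cbr1, P84 minus P30 in the cortex (-0.01 to 0.11), P15 minus P1 in the hippocampus (-0.04 to 0.06), P30 minus P15 in the hippocampus (-0.11 to 0.18), P84 minus P30 in the hippocampus (-0.06 to 0.18), genotype difference of cerebellum minus cortex (-0.11 to 0.07), cerebellum minus cortex of the P15 minus P1 changes (-0.39 to 0.22) and hippocampus minus cortex at P84 (-0.04 to 0.19), and for Cbr3, P30 minus P15 in the cerebellum (-0.29 to 0.02), P84 minus P30 in the cerebellum (-0.25 to 0.08), P30 minus P15 in the cortex (-0.08 to 0.06), P84 minus P30 in the cortex (-0.02 to 0.22), P30 minus P15 in the hippocampus (-0.11 to 0.45), genotype difference of hippocampus minus cortex (-0.12 to 0.07), genotype difference in the P15 cerebellum (-0.46 to 0.44), genotype difference in the P30 cerebellum (-0.09 to 0.31), genotype difference in the P84 hippocampus (-0.04 to 0.63) and hippocampus minus cortex at P15 (-0.18 to 0.29), and the Cbr3 minus Cbr1 difference in the hippocampus (-0.12 to 0.13).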
